A study of Mus musculus with 19 samples.

Results

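The 9 genes described here encode enzymes of the tricarboxylic acid cycle, and they were chosen by symbol from the gene-name columns of 3 expression tables. They are *Cs*, *Idh2*, *Idh3a*, *Ogdh*, *Sucla2*, *Suclg1*, *Suclg2*, *Fh1* and *Mdh2*. All 9 were found in each table, among 55573 genes listed for 7 tissues, 55487 for brown adipose tissue (BAT) and 13756 for inguinal white adipose tissue (iWAT). The first table holds white and brown adipose tissue, heart, brain, small intestine, liver and tibialis anterior muscle of wild-type (WT) C57BL/6J mice on chow, with 1 library each and no treatment given. The BAT and iWAT tables hold 3 WT and 3 MCK-Musclin libraries each, from male mice 5 months old that were fed chow, all of which spent 1 week at 8 °C, so the comparison has no warm control. MCK-Musclin mice carry the coding sequence of Musclin (*Ostn*), a secreted factor of muscle, under the promoter of muscle creatine kinase, which drives expression in skeletal muscle and, at lower level, in heart. Several founder lines were established, and which line gave the libraries is not stated. According to the study's methods the libraries of a group came from independent animals, and p-values set a group difference against the spread between these libraries.

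The cycle runs in the mitochondrial matrix, where acetyl-CoA from sugars, fatty acids and amino acids is oxidized to carbon dioxide and the electrons pass to NADH and FADH2 for the respiratory chain. Citrate synthase (*Cs*) joins acetyl-CoA to oxaloacetate, and isocitrate dehydrogenase (*Idh3a* with its partners, or the NADP-dependent *Idh2*) and 2-oxoglutarate dehydrogenase (*Ogdh*) carry out the oxidative decarboxylations. Succinyl-CoA ligase pairs the alpha subunit *Suclg1* with an ATP-forming beta subunit, *Sucla2*, or a GTP-forming one, *Suclg2*, and fumarase (*Fh1*) and malate dehydrogenase (*Mdh2*) lead back to oxaloacetate. Brown and beige adipocytes are rich in mitochondria and burn fuel through this cycle to make heat.

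All 9 are protein-coding genes, and in the GENCODE annotation of GRCm38, the build of the tables, none of them has an exon that overlaps an exon of another gene. *Cs* lies at chr10:128337734-128362479 on the plus strand, *Idh2* at chr7:80094846-80115392 on the minus strand, and *Idh3a* at chr9:54586334-54604661 on the plus strand. *Ogdh* lies at chr11:6291633-6356642 (plus), *Sucla2* at chr14:73525319-73596142 (plus), *Suclg1* at chr6:73248382-73276911 (plus) and *Suclg2* at chr6:95473009-95718800 (minus). *Fh1* lies at chr1:175600374-175625635 (minus) and *Mdh2* at chr5:135778480-135790398 (plus). The merged exons of a gene in this annotation span from 2588 bases for *Idh2* to 5779 bases for *Cs*.

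Promoter windows were read from RefSeq on GRCm38.p6, each with 250 bases before and 50 bases after a start site, and 8 of the 9 genes matched an entry. *Idh3a* did not match. The windows were searched on both strands for the cAMP response element TGACGTCA, because the thermogenic response of adipocytes to cold runs through cAMP, for TNAAGGTCA of estrogen-related receptors, GCATGCGC of NRF1 and CCGGAAG of GABP, factors known for mitochondrial genes, and for the GC box GGGCGG. The letters of different motifs do not overlap in the windows printed here, whereas GC boxes may overlap each other. TGACGTCA was found in 2 of the 8 genes, *Mdh2* and *Ogdh*, against 1.79% of all 32851 promoter windows. A gene was counted if any of its windows matched, whereas the share is per window. *Ogdh* has 6 start sites and each of the other genes 1. In *Ogdh* the element lay in the windows of 3 of the 6 start sites listed, which overlap and hold the same site. GCATGCGC was found in 1 gene, *Ogdh*, at another 2 of its start sites, whose windows hold the same site, against 2.71% of all windows. TNAAGGTCA (1.28% of all windows) and CCGGAAG (8.86%) were found in none of the 8, and GGGCGG in 7 of them, all but *Suclg1*, against 35.7% of all windows. A match is a run of letters and not a measured binding site. The windows of *Ogdh* (first start site, plus strand, chr11:6291347-6291646) and *Mdh2* (plus strand, chr5:135778399-135778698) are shown, 5′ to 3′ along the gene, because they hold the cAMP response element, which is in capitals and begins 51 and 127 bases before the start site.
Ogdh: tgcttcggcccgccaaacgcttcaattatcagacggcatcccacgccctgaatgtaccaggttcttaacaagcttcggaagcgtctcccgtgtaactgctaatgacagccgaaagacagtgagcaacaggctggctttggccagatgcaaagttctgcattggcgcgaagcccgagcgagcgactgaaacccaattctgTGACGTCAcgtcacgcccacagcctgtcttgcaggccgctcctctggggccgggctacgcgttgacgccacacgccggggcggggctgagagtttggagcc
Mdh2: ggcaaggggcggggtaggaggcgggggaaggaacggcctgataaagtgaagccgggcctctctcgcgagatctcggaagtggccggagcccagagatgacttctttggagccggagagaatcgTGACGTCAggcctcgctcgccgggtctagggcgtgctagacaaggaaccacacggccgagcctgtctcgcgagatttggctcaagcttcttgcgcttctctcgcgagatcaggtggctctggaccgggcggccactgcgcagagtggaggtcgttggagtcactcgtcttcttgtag
The windows of *Sucla2* (plus strand, chr14:73552536-73552835, inside the longer GENCODE gene) and *Suclg2* (minus strand, chr6:95718797-95719096) are shown because these genes encode the alternative beta subunits, whose ratio differed between tissues. GC boxes are in capitals on either strand (CCGCCC where the box is on the other strand), 1 in *Sucla2* and 7, some of them overlapping, in *Suclg2*.
Sucla2: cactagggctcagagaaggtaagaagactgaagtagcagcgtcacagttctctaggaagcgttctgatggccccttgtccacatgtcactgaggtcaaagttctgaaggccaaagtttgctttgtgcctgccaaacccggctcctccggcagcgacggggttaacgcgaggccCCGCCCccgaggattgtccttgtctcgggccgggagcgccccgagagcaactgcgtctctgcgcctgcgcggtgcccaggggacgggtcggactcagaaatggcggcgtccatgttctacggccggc
Suclg2: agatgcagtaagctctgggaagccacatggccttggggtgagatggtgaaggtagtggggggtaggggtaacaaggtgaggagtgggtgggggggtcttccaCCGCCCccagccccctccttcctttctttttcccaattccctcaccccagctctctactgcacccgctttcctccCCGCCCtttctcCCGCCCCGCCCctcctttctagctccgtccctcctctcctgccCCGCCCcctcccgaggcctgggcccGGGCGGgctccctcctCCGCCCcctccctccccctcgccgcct

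The values are FPKM, which counts the fragments of a gene relative to its exon length and to all fragments mapped, so levels can be set beside each other between genes of a library. The tables were scaled separately, and values of different tables are given side by side without a test. Read numbers are not given, and from the steps between low values the depth relative to the heart library was 0.914 to 1.05 in the other tissues, and relative to WT library 1 it was 0.889 to 1.11 in BAT. For iWAT the depth could not be read from the values. Mitochondrially encoded genes held 13.3% to 53.83% of the summed FPKM in the 7 tissues and 50.56% to 51.98% in BAT, and the iWAT table lists none of them. The labels of the tissues were checked against defining markers. *Myh6* was at 14088 FPKM in heart, *Ckm* at 3969 in tibialis anterior muscle, *Snap25* at 4072 in brain, *Alb* at 22399 in liver, *Vil1* at 443 in small intestine, *Adipoq* at 1699 in white adipose tissue and *Ucp1* at 467 in brown adipose tissue, each the highest of the 7 tissues. *Elovl3*, a brown fat marker on the same list, was at 0.0862 FPKM in brown adipose tissue. *Ostn* was listed at 0 in all 3 WT libraries of BAT and at 37.9, 31.6 and 30.3 FPKM in MCK-Musclin libraries 1 to 3. In iWAT it was at 0, 0 and 0.225 FPKM in WT libraries 1 to 3 and at 0, 5.17 and 4.21 in MCK-Musclin libraries 1 to 3, so in iWAT the library labelled MCK-Musclin 1 shows no transgene signal. The transgene is driven in muscle, so this value in fat does not settle the genotype of that mouse.

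Across the 7 tissues, brown adipose tissue held the highest FPKM for 6 of the 9 enzymes, namely *Cs*, *Idh3a*, *Ogdh*, *Sucla2*, *Suclg1* and *Fh1*, where 5.66% of the 14692 genes averaging 1 FPKM or more had their highest value in that tissue. *Idh2* was highest in heart, *Suclg2* in liver and *Mdh2* in small intestine. With median-ratio scaling of the libraries *Ogdh* was highest in heart as well, which left 5 in brown adipose tissue. The 9 genes summed to 3441 FPKM in brown adipose tissue, 2576 in heart, 1715 in small intestine, 1620 in tibialis anterior muscle, 763 in white adipose tissue, 619 in liver and 519 in brain. With 1 library per tissue, neighbours in these orders have no replicate check, and the size used for a count between a pair of tissues was 2-fold.

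**Figure D1:**
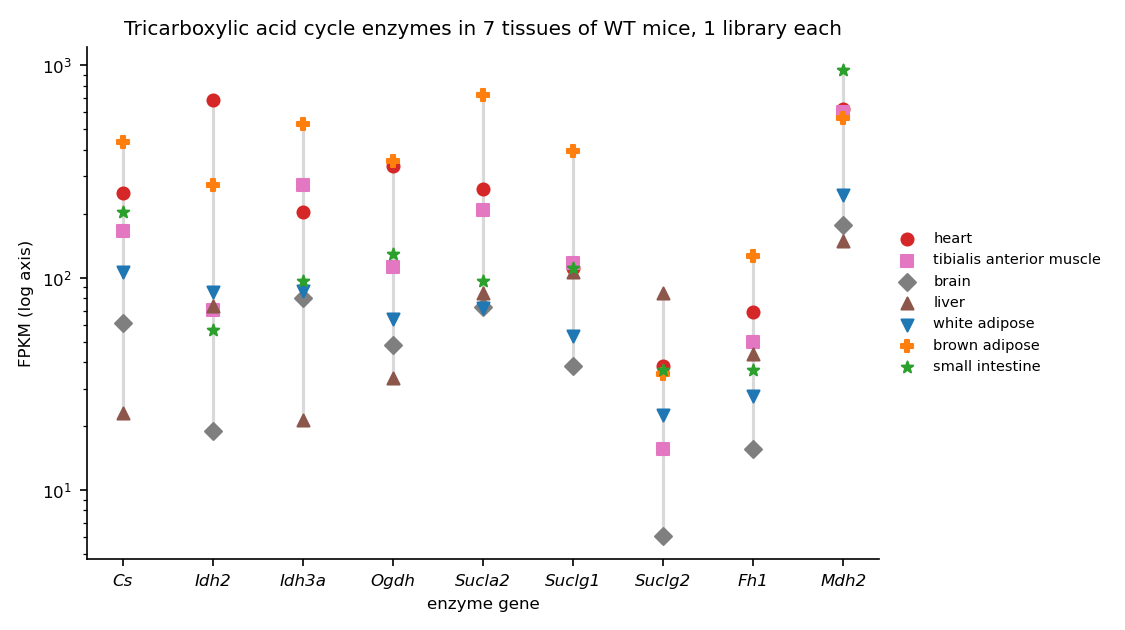
FPKM (log axis) of each of the 9 enzyme genes in 7 tissues of WT mice, 1 point per tissue, with a grey line from the lowest to the highest. Brown adipose tissue is the top point for 6 of the 9 genes, heart for Idh2, liver for Suclg2 and small intestine for Mdh2.

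*Cs*, the entry enzyme, was at 438 FPKM in brown adipose tissue, 250 in heart, 203 in small intestine, 167 in tibialis anterior muscle, 106 in white adipose tissue, 61.0 in brain and 23.1 in liver. The range between brown adipose tissue and liver was 19.0-fold, and the value in brown adipose tissue was 1.75 times that in heart, the next tissue.

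*Idh3a*, the catalytic subunit of the NAD-dependent isocitrate dehydrogenase, was at 530 FPKM in brown adipose tissue, 274 in tibialis anterior muscle, 204 in heart, 96.5 in small intestine, 86.1 in white adipose tissue, 80.3 in brain and 21.4 in liver. *Idh2*, which makes NADPH from the same substrate in the matrix, was at 684 FPKM in heart, 274 in brown adipose tissue, 85.5 in white adipose tissue, 73.4 in liver, 70.0 in tibialis anterior muscle, 56.7 in small intestine and 18.9 in brain. The orders of this pair therefore differed, and *Idh2* had the widest range of the 9 genes, 36.2-fold. The FPKM of *Idh3a* divided by that of *Idh2* was 0.298 in heart and 0.292 in liver, 1.01 in white adipose tissue, 1.70 in small intestine, 1.93 in brown adipose tissue, 3.91 in tibialis anterior muscle and 4.24 in brain. Heart and skeletal muscle, both striated, thus stood at opposite sides of 1.

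*Ogdh*, the first subunit of the 2-oxoglutarate dehydrogenase complex, was at 355 FPKM in brown adipose tissue and 336 in heart, which differ 1.05-fold, followed by 129 in small intestine, 113 in tibialis anterior muscle, 63.8 in white adipose tissue, 48.4 in brain and 33.8 in liver. It was 2.98-fold higher in heart than in tibialis anterior muscle. *Idh2* (9.77-fold) and *Suclg2* (2.45-fold) were the other members at least 2-fold higher in heart than in that muscle, 3 of 9 in all, and 38.7% of the genes listed at a mean of at least 1 FPKM met the same size. With median-ratio scaling the number was 2.

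*Suclg1*, the alpha subunit shared by both forms of succinyl-CoA ligase, was at 393 FPKM in brown adipose tissue, 117 in tibialis anterior muscle, 111 in heart, 111 in small intestine, 106 in liver, 53.2 in white adipose tissue and 38.3 in brain. Apart from brown adipose tissue, which stood 3.36 times above the next tissue, the values of 4 tissues lay close together. *Sucla2*, its ATP-forming partner, was at 728 FPKM in brown adipose tissue, 261 in heart, 209 in tibialis anterior muscle, 96.5 in small intestine, 85.0 in liver, 73.0 in brain and 72.0 in white adipose tissue. *Suclg2*, its GTP-forming partner, was at 84.4 FPKM in liver, 38.2 in heart, 36.9 in small intestine, 35.1 in brown adipose tissue, 22.4 in white adipose tissue, 15.6 in tibialis anterior muscle and 6.08 in brain. *Suclg2* was the member least like the rest: its log2(FPKM + 1) had a Pearson correlation of 0.378 over the 7 tissues with the mean z score of the 9 genes, where the other 8 had 0.758 to 0.942. These correlations describe 7 libraries, each member is part of the mean, and no p is given.

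The FPKM of *Sucla2* was 20.8 times that of *Suclg2* in brown adipose tissue, 13.4 times in tibialis anterior muscle, 12.0 times in brain, 6.83 times in heart, 3.21 times in white adipose tissue and 2.62 times in small intestine. In liver both subunits were at the same level, with a ratio of 1.01. In this ratio each library is its own reference, so the scaling of the libraries does not enter.

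*Fh1* was at 126 FPKM in brown adipose tissue, 68.9 in heart, 49.6 in tibialis anterior muscle, 43.9 in liver, 36.8 in small intestine, 27.8 in white adipose tissue and 15.5 in brain. *Mdh2* was at 948 FPKM in small intestine, 624 in heart, 606 in tibialis anterior muscle, 562 in brown adipose tissue, 246 in white adipose tissue, 178 in brain and 148 in liver. *Mdh2* had the narrowest range of the 9 genes, 6.40-fold, and it was the most abundant member in 5 of the 7 tissues, the exceptions being heart (*Idh2*) and brown adipose tissue (*Sucla2*). *Suclg2* was the least abundant member in 5 tissues, the exceptions being liver (*Idh3a*) and small intestine (*Fh1*).

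Brown adipose tissue was at least 2-fold above white adipose tissue for 8 of the 9 enzymes, against 11.9% of all genes compared, from 2.28-fold for *Mdh2* to 10.1-fold for *Sucla2*. The exception was *Suclg2* at 1.56-fold. With FPKM rescaled to the same sum in each library (TPM), 6 members met this size, and with median-ratio scaling 9 did. Brain held the lowest value for 4 members (*Idh2*, *Suclg1*, *Suclg2* and *Fh1*), against 9.26% of all genes, and liver for 4 (*Cs*, *Idh3a*, *Ogdh* and *Mdh2*), against 22.1%. This split moved with the scaling, to 6 in brain and 2 in liver with median-ratio scaling and to 4 in brain and 5 in liver with TPM. The mean z score of log2(FPKM + 1) over the 9 genes placed the tissues in the order brown adipose tissue (1.22), heart (0.735), tibialis anterior muscle (0.166), small intestine (0.101), white adipose tissue (-0.503), liver (-0.607) and brain (-1.11).

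A further 8 subunits of the cycle enzymes were compared in the same way. Across *Idh3b*, *Idh3g*, *Dlst*, *Dld*, *Sdha*, *Sdhb*, *Sdhc* and *Sdhd*, partners of *Idh3a* and *Ogdh* and the subunits of succinate dehydrogenase, the brown to white difference was 2.52-fold for *Dld* to 5.55-fold for *Idh3b*. *Dlst*, the second subunit of the 2-oxoglutarate dehydrogenase complex, was 3.36-fold higher in heart than in tibialis anterior muscle, beside 2.98-fold for *Ogdh*. The other partner of *Ogdh*, *Dld*, differed 1.34-fold between these tissues. The remaining subunits ran from 0.966-fold for *Idh3g* to 1.43-fold for *Sdha*.

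Among 8957 genes averaging 5 FPKM or more over the 7 tissues, the 5 genes outside the 9 whose log2(FPKM + 1) followed their mean z score most closely were *Atp5b* (Pearson correlation 0.991), *Sdha* (0.982), *Mrpl55* (0.979), *Coq7* (0.978) and *Uqcrc2* (0.974). *Atp5b* encodes the beta subunit of ATP synthase, *Sdha* the flavoprotein of succinate dehydrogenase, *Mrpl55* a mitochondrial ribosomal protein, *Coq7* an enzyme of coenzyme Q synthesis and *Uqcrc2* a core protein of complex III. The points share library, depth and the share of mitochondrial transcripts, and the correlations were taken as a description over 7 tissues.

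In iWAT of cold-exposed mice, where beige adipocytes arise, the study asked how Musclin from muscle changes the thermogenic program. All 9 enzymes had a log2 fold change below 0 in MCK-Musclin mice, from -0.16 for *Idh2* to -0.66 for *Sucla2*, where 38.7% of the 12197 genes tested were below 0. *Idh3a* and *Ogdh*, 2 of the 9, passed the cutoff of the study for lower expression, a log2 fold change beyond 0.5 at an unadjusted p under 0.05, against 0.902% of all genes tested. The median log2 fold change was -0.35 for the 9 genes and 0.06 for all genes tested. No member and no other gene of iWAT had an adjusted p under 0.05 (limma, Benjamini-Hochberg over all genes tested, smallest 0.0912), although 16.5% of genes had an unadjusted p under 0.05. The study had itself placed *Idh3a*, *Ogdh* and *Sucla2* in a gene group defined on these libraries, so their direction is not independent evidence. In bulk tissue, fewer cells of a type and less RNA per cell cannot be told apart.

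**Figure D2:**
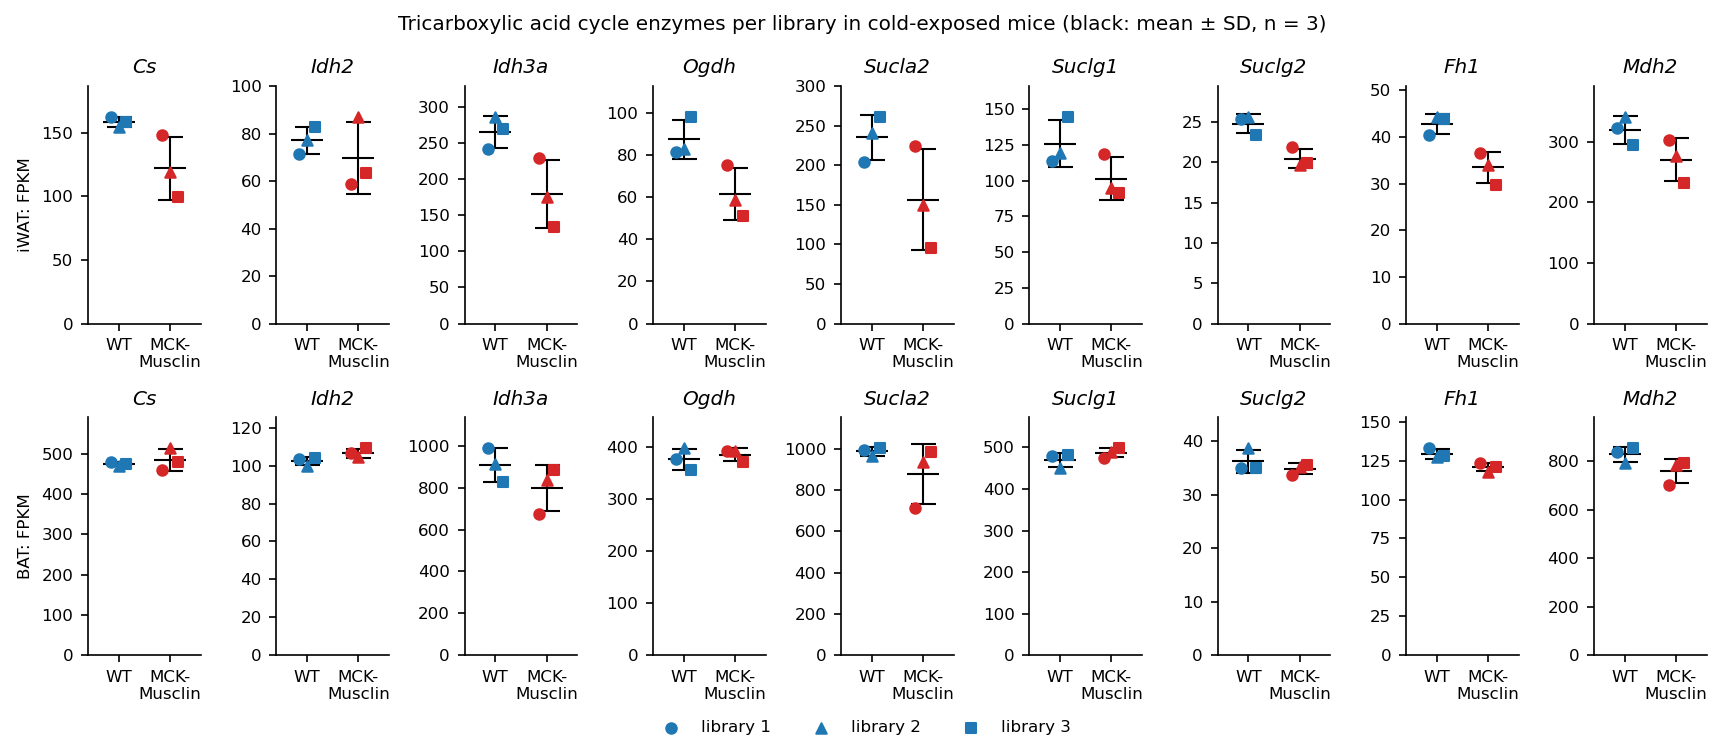
FPKM of each enzyme in the 3 WT (blue) and 3 MCK-Musclin (red) libraries of iWAT (upper row) and BAT (lower row), with mean ± SD in black (n = 3) and a vertical axis from 0 in each panel. In iWAT MCK-Musclin library 3 lies below all WT libraries for 9 of 9 genes and library 1 lies nearest to them for most, whereas in BAT the groups overlap for 7 of 9 genes.

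*Cs* in iWAT was at 162, 155 and 158 FPKM in WT libraries 1 to 3 and at 148, 119 and 99.2 in MCK-Musclin libraries 1 to 3. The groups did not overlap, and the means were 158 ± 3.76 and 122 ± 24.7 (SD, n = 3). The log2 fold change was -0.39 (SE 0.148, unadjusted p = 0.0316, adjusted p = 0.258), short of the cutoff in size.

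*Idh3a* was at 242, 286 and 269 FPKM in WT libraries 1 to 3 and at 229, 176 and 134 in the MCK-Musclin libraries. All MCK-Musclin libraries lay below the lowest WT library, by a log2 fold change of -0.59 (SE 0.191, 95% interval -1.04 to -0.15, unadjusted p = 0.0163, adjusted p = 0.208). *Ogdh* was at 81.2, 83.1 and 98.1 FPKM in WT libraries and at 75.1, 58.6 and 51.1 in MCK-Musclin libraries, again without overlap. Its log2 fold change was -0.51 (SE 0.156, 95% interval -0.88 to -0.15, unadjusted p = 0.0125, adjusted p = 0.194). *Idh2* was at 71.3, 77.4 and 82.9 FPKM in WT libraries and at 58.7, 87.1 and 63.5 in MCK-Musclin libraries. MCK-Musclin library 2 held the highest *Idh2* of all 6 libraries, the groups overlapped, and the log2 fold change of -0.16 had a 95% interval of -0.53 to 0.20 (unadjusted p = 0.330).

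*Suclg1* was at 114, 120 and 145 FPKM in WT libraries and at 119, 94.6 and 91.4 in MCK-Musclin libraries, a log2 fold change of -0.31 (unadjusted p = 0.0617). *Sucla2* was at 204, 241 and 261 FPKM in WT libraries and at 224, 150 and 95.9 in MCK-Musclin libraries. MCK-Musclin library 1 lay inside the WT range for both genes, and library 3 held 40.7% of the WT mean of *Sucla2*, the lowest share of any member in any iWAT library. The log2 fold change of *Sucla2* was the most negative of the 9 genes at -0.66, but its SE of 0.283 was the largest and it missed the threshold (unadjusted p = 0.0507, adjusted p = 0.303). This value was -0.96 with MCK-Musclin library 1 left out and -0.35 with library 3 left out, where *Idh3a* was more negative at -0.40. *Suclg2* was at 25.4, 25.6 and 23.4 FPKM in WT libraries and at 21.9, 19.7 and 19.9 in MCK-Musclin libraries. These groups did not overlap, with a difference of -0.27 on the log2 scale (SE 0.0923, unadjusted p = 0.0228, adjusted p = 0.228).

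*Fh1* was at 40.4, 44.3 and 44.0 FPKM in WT libraries and at 36.6, 34.0 and 29.8 in MCK-Musclin libraries, without overlap and with a log2 fold change of -0.35 (SE 0.105, unadjusted p = 0.0115, adjusted p = 0.188). *Mdh2* was at 322, 341 and 295 FPKM in WT libraries and at 303, 277 and 232 in MCK-Musclin libraries, with a log2 fold change of -0.24 (unadjusted p = 0.0952). *Fh1* thus had the smallest p of the 9 genes, while its change in size stayed under the cutoff. In all, 5 members (*Cs*, *Idh3a*, *Ogdh*, *Suclg2* and *Fh1*) had all MCK-Musclin libraries below the lowest WT library, against 5.44% of all genes tested, and the same 5 had an unadjusted p under 0.05 for lower expression, against 3.44%. None lay above without overlap, where 17.9% of all genes did.

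The 3 MCK-Musclin libraries of iWAT differed among themselves. The median of the 9 genes was 88.2% of the WT mean in MCK-Musclin library 1, 75.0% in library 2 and 69.5% in library 3. The summed FPKM of the 9 genes was 1262, 1373 and 1376 in the WT libraries and 1215, 1015 and 817 in the MCK-Musclin libraries. Library 1, in which *Ostn* was listed at 0, was thus the closest to WT, and all 3 lay below the lowest WT library. The fast skeletal muscle markers of library 1 summed to 17.5 FPKM, beside 172 and 200 in MCK-Musclin libraries 2 and 3. The source of the *Ostn* signal in fat was not tested, and an *Ostn* of 0 does not settle the genotype of library 1. The number of members lower at the cutoff was 4 (*Cs*, *Idh3a*, *Ogdh* and *Sucla2*) without MCK-Musclin library 1 and 0 without library 3. It was 1 without MCK-Musclin library 2 or without WT library 2 or 3. The negative sign of all 9 log2 fold changes held in every one of these fits.

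Markers of other cell types moved in the same iWAT libraries. The 10 brown and beige fat markers summed to 587, 921 and 1092 FPKM in WT libraries and to 658, 231 and 120 in MCK-Musclin libraries. Of the 10, 7 were lower at the cutoff, against 0.902% of all genes tested. *Ucp1*, the uncoupling protein, was at 130, 248 and 346 FPKM in WT and at 173, 31.6 and 2.92 in MCK-Musclin libraries, the same order among the MCK-Musclin libraries as for the summed enzymes. The 12 fast skeletal muscle markers summed to 16.0, 846 and 4733 FPKM in WT libraries and to 17.5, 172 and 200 in MCK-Musclin libraries. In WT library 1 and MCK-Musclin library 1, 2 of the 12 were at 0. All 12 had a log2 fold change below 0, with a median of -2.15. Because the libraries of a group differed widely, 0 of the 12 passed the cutoff, which does not show equal muscle content. The lymphocyte markers, of which 9 of 10 are listed, summed to 325, 193 and 200 FPKM in WT libraries and to 378, 502 and 460 in MCK-Musclin libraries. Of these 9, 7 were higher at the cutoff, against 5.04% of all genes tested. The 10 adipocyte markers summed to 16430, 17670 and 17570 FPKM in WT libraries and to 14750, 15470 and 16710 in MCK-Musclin libraries, and 9 of the 10 had a log2 fold change below 0. Centred on the adipocyte markers, the median of the 9 enzymes was -0.20 beside 0.22 for all genes, and 0 of 9 passed the cutoff. This centring moved the median of all genes from 0.06 to 0.22. On the adipocyte list, 2 of the 10 markers were themselves lower without overlap, *Pnpla2* at -0.29 and *Cidec* at -0.31. Centring on them therefore cannot separate fewer adipocytes from lower marker expression. The part of these cell types in the enzyme values was not tested.

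The same comparison was made for further subunits of the cycle and the steps around it in iWAT. Of the further 8 cycle subunits, 7 had a log2 fold change below 0, with a median of -0.28, and 0 passed the cutoff in either direction. For lower expression, 3 had an unadjusted p under 0.05 (limma), against 3.44% of all genes tested. *Sdha* (-0.31), *Sdhb* (-0.34) and *Sdhd* (-0.32) of succinate dehydrogenase were these 3, short of the cutoff in size, and *Sdhc* was at -0.13. The partners of *Idh3a* were at -0.33 (*Idh3b*) and -0.19 (*Idh3g*), and those of *Ogdh* at 0.02 (*Dlst*) and -0.25 (*Dld*). *Dlst* was at 63.1, 82.6 and 89.9 FPKM in WT libraries and at 94.2, 75.6 and 68.4 in MCK-Musclin libraries, and these groups overlapped.

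Of the 12 genes of pyruvate entry, the carriers, pyruvate dehydrogenase and its regulators, 11 had a log2 fold change below 0 in iWAT with a median of -0.39. None passed the cutoff in either direction, although 4 had an unadjusted p under 0.05 for lower expression (limma), against 3.44% of all genes tested. The list pools the dehydrogenase with its regulators, so its median gives no direction of pyruvate entry. Of the 4 cytosolic and alternative forms tested, all were below 0 with a median of -0.22, and 0 passed the cutoff. Of these 4, 1 had an unadjusted p under 0.05 for lower expression, against the same 3.44%. The 12 genes of anaplerosis and exits had a median of -0.04, with 7 below 0, and 1 of them passed the cutoff for higher expression, where 5.04% of all genes tested did. This was *Pck2*, the mitochondrial phosphoenolpyruvate carboxykinase, at 4.30, 4.26 and 4.25 FPKM in WT libraries and at 6.72, 6.84 and 9.49 in MCK-Musclin libraries (log2 fold change 0.71, SE 0.140, unadjusted p = 0.00135, adjusted p = 0.143). For *Pck2* the lowest MCK-Musclin library lay above the highest WT library. Of the 12 genes of anaplerosis and exits, 2 were higher and 1 lower at an unadjusted p under 0.05 (limma). In either direction, 16.5% of all genes tested met this p.

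In BAT of cold-exposed mice, the same comparison gave smaller differences, from -0.19 for *Idh3a* to 0.06 for *Idh2* on the log2 scale. Of the 9 genes, 0 passed the cutoff of the study for BAT, a log2 fold change beyond 0.3 at an unadjusted p under 0.05, and 0 had an unadjusted p under 0.05 (limma), where 2.15% of the 10893 genes tested were lower and 1.85% higher at the cutoff and 2.71% were lower at an unadjusted p under 0.05. The median log2 fold change was -0.05 for the 9 genes and -0.01 for all genes, with 5 of 9 below 0, where 52.3% of all genes were. A p that misses the threshold does not show equal levels, and the 95% intervals give the differences these libraries allow.

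**Figure D3:**
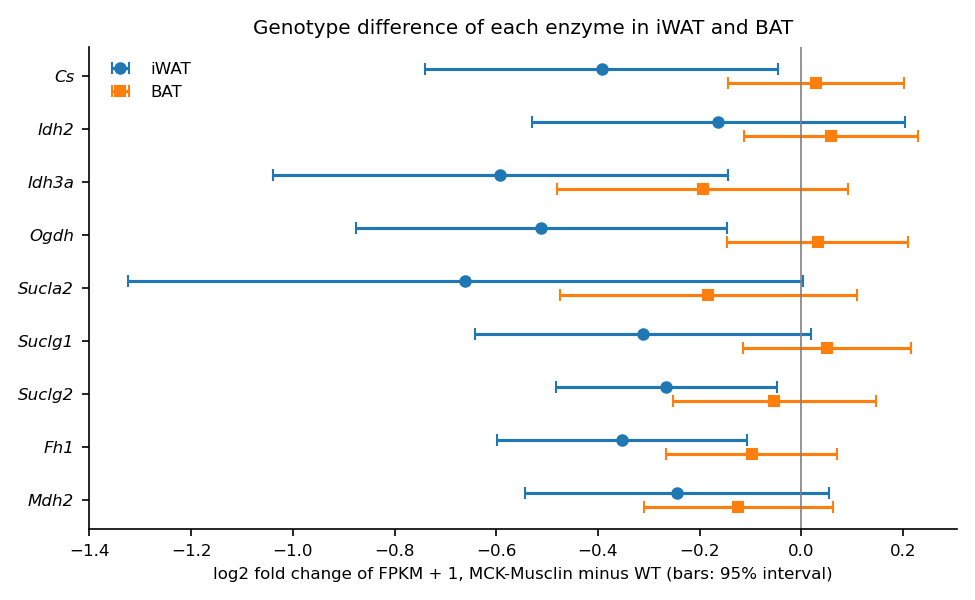
Log2 fold change of FPKM + 1 in MCK-Musclin against WT mice for each enzyme in iWAT (blue circles) and BAT (orange squares), with 95% intervals from limma. All 9 points of iWAT lie below 0 and 5 of the intervals exclude it, and in BAT every interval includes 0.

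*Cs* in BAT was at 480, 471 and 474 FPKM in WT libraries and at 460, 514 and 481 in MCK-Musclin libraries, with a log2 fold change of 0.03 (95% interval -0.14 to 0.20). *Idh3a* was at 989, 915 and 826 FPKM in WT libraries and at 673, 836 and 887 in MCK-Musclin libraries, with a log2 fold change of -0.19 (95% interval -0.48 to 0.09). Only MCK-Musclin library 1 lay outside the range of the WT libraries for *Idh3a*. *Idh2* was at 104, 99.8 and 104 FPKM in WT libraries and at 106, 104 and 109 in MCK-Musclin libraries. It was the 1 member whose MCK-Musclin libraries all lay above WT, by 0.06 on the log2 scale (95% interval -0.11 to 0.23), and 4.38% of all genes tested lay above without overlap. *Ogdh* was at 376, 397 and 356 FPKM in WT libraries and at 391, 392 and 371 in MCK-Musclin libraries, with a log2 fold change of 0.03 (95% interval -0.15 to 0.21) and full overlap.

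*Sucla2* in BAT was at 995, 964 and 1001 FPKM in WT libraries and at 711, 938 and 983 in MCK-Musclin libraries, with a log2 fold change of -0.18 (95% interval -0.48 to 0.11). Library 1 alone was far below the others, at 72.1% of the WT mean. *Suclg1* was at 479, 451 and 482 FPKM in WT libraries and at 476, 488 and 498 in MCK-Musclin libraries, with a log2 fold change of 0.05 (95% interval -0.11 to 0.21). *Suclg2* was at 35.1, 38.7 and 35.0 FPKM in WT libraries and at 33.7, 35.3 and 35.7 in MCK-Musclin libraries, with a log2 fold change of -0.05 (95% interval -0.25 to 0.15). For both genes the groups overlapped.

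*Fh1* was at 133, 127 and 128 FPKM in WT libraries and at 123, 118 and 121 in MCK-Musclin libraries. It was the 1 member with every MCK-Musclin library below WT, by -0.10 on the log2 scale (95% interval -0.27 to 0.07), and 5.63% of all genes tested lay below without overlap. *Mdh2* was at 837, 792 and 852 FPKM in WT libraries and at 703, 784 and 793 in MCK-Musclin libraries, with a log2 fold change of -0.12 (95% interval -0.31 to 0.06). *Sucla2* was the most abundant and *Suclg2* the least abundant of the 9 genes in all 6 BAT libraries, whereas in all 6 iWAT libraries the most abundant was *Mdh2*.

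In BAT, MCK-Musclin library 1 held the lowest sum of the 9 genes, 3678 FPKM beside 4209 to 4428 in the other 5 libraries. The 12 fast skeletal muscle markers summed to 593, 837 and 527 FPKM in WT libraries and to 1935, 875 and 1253 in MCK-Musclin libraries, with 10 of the 12 higher at the cutoff and the highest sum in library 1. The 10 brown and beige fat markers summed to 10530, 9108 and 9384 FPKM in WT libraries and to 9427, 8748 and 10150 in MCK-Musclin libraries. Of these 10, 1 was lower at the cutoff and 0 higher. Of all genes tested, 2.15% were lower and 1.85% higher at the cutoff. Without MCK-Musclin library 1 the log2 fold change was -0.04 for *Sucla2* and -0.08 for *Idh3a*. What the muscle markers contribute to the enzyme values was not tested.

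Of the further 8 cycle subunits in BAT, 0 passed the cutoff and 0 had an unadjusted p under 0.05 (limma), with a median log2 fold change of 0.05. Their log2 fold changes were 0.06 for *Idh3b*, -0.14 for *Idh3g*, 0.22 for *Dlst*, 0.12 for *Dld*, 0.04 for *Sdha*, 0.06 for *Sdhb*, -0.17 for *Sdhc* and -0.11 for *Sdhd*. *Dlst* was at 254, 185 and 262 FPKM in WT libraries and at 192, 427 and 237 in MCK-Musclin libraries, so that library 2 alone stood apart. The 12 genes of pyruvate entry had a median of -0.02, with 0 past the cutoff. Of these 12, 2 were lower at an unadjusted p under 0.05, against 2.71% of all genes tested. The 3 cytosolic and alternative forms tested had a median of -0.04, with 0 past the cutoff and 0 at an unadjusted p under 0.05. Of 13 genes of anaplerosis and exits, with a median of -0.01, 1 was lower and 1 higher at the cutoff, against 2.15% and 1.85% of all genes tested. The lower gene was *Pck2*, at 3.16, 2.25 and 1.78 FPKM in WT libraries and at 1.11, 1.09 and 1.64 in MCK-Musclin libraries, without overlap (log2 fold change -0.56, SE 0.186, unadjusted p = 0.0173, adjusted p = 0.968). The higher gene was *Got1*, the cytosolic aspartate aminotransferase, at 15.5, 14.8 and 13.6 FPKM in WT libraries and at 30.2, 14.8 and 26.0 in MCK-Musclin libraries (log2 fold change 0.60, SE 0.237, unadjusted p = 0.0371, adjusted p = 0.968). *Got1* was also 121 FPKM in tibialis anterior muscle beside 7.38 in brown adipose tissue, and it was highest in the MCK-Musclin libraries with the highest muscle markers. What muscle contributes to the *Got1* values was not tested.

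The balance of the beta subunits of succinyl-CoA ligase was compared within each library. In iWAT the FPKM of *Sucla2* divided by that of *Suclg2* was 8.07, 9.40 and 11.1 in the WT group and 10.2, 7.63 and 4.83 in the MCK-Musclin group. The groups overlapped, with means of 9.54 ± 1.54 and 7.57 ± 2.71 (SD, n = 3) and a log2 difference of -0.39 (exact two-sided permutation test, p = 0.4, where 0.1 is the smallest p of 3 libraries against 3). In BAT the ratio was 28.4, 24.9 and 28.6 in the WT group and 21.1, 26.6 and 27.6 in the MCK-Musclin group, with means of 27.3 ± 2.06 and 25.1 ± 3.49 (SD, n = 3). This difference of -0.13 on the log2 scale did not exceed the spread between libraries either (p = 0.5, exact two-sided permutation test). Leaving out each library in turn kept the sign of both differences but not their size. In iWAT the log2 difference ran from -0.64, with MCK-Musclin library 1 left out, to -0.0969, with library 3 of that group left out. In BAT it ran from -0.20, with MCK-Musclin library 3 left out, to -0.0091, with library 1 of that group left out. The range of the ratio over the 7 tissues, 1.01 to 20.8, was wider than that over either set of 6 adipose libraries.

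**Figure D4:**
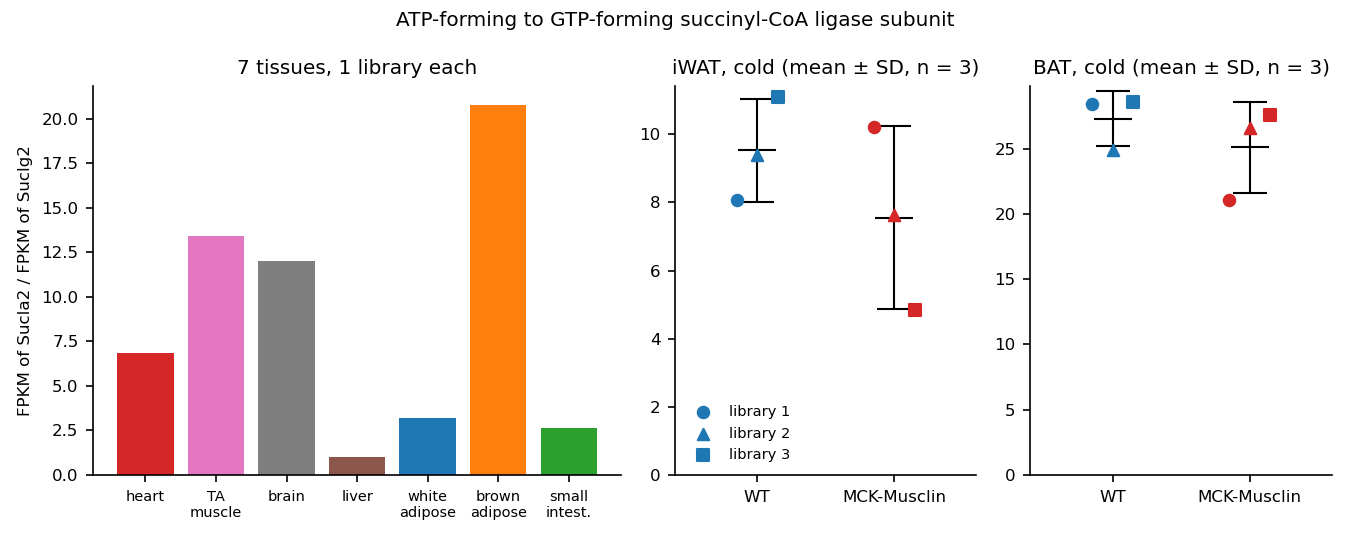
FPKM of Sucla2 divided by FPKM of Suclg2 in 7 tissues (left, 1 library each), in iWAT (middle) and in BAT (right), where points are libraries (blue WT, red MCK-Musclin) and black bars mean ± SD (n = 3). The ratio runs from 1.01 in liver to 20.8 in brown adipose tissue, and the WT and MCK-Musclin libraries overlap in both adipose tissues.

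The FPKM of *Idh3a* divided by that of *Idh2* was 3.39, 3.69 and 3.25 in WT libraries of iWAT and 3.90, 2.02 and 2.12 in MCK-Musclin libraries, and it was 9.54, 9.17 and 7.96 in WT libraries of BAT and 6.32, 8.00 and 8.13 in MCK-Musclin libraries. The groups overlapped in both tissues. Set side by side, and without a test since the tables were scaled separately, WT BAT in the cold held an *Idh2* of 102 ± 2.27 FPKM (SD, n = 3) and brown adipose tissue of the 7 untreated tissues held 274, whereas *Idh3a* was at 910 ± 81.3 and 530. Whether the difference between iWAT and BAT in the genotype effect exceeds the spread was not tested for any gene, as each table was fitted alone.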

How the data were processed

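RNA-Seq of 19 mouse libraries was analysed, 7 of them tissues of WT mice with 1 library each and 12 from iWAT and BAT of cold-exposed WT and MCK-Musclin mice, 3 per group, grouped by the labels. Total RNA was reverse-transcribed from poly(A) RNA and sequenced on a NovaSeq instrument. Before deposit the authors cleaned reads (fastp, bowtie2), aligned them with HISAT2 (2.1.0 in the submitters' processing notes) to mm10 (GRCm38) without using strand, and deposited 1 FPKM value per gene and library. FPKM divides fragments by exon length and mapped fragments, so abundant transcripts lower the FPKM of all others. Read counts were not analysed here, so count models were not run. The iWAT table also holds the authors' own comparison (group means, log2 fold change, p-value and FDR), which was not used. All columns of single libraries were used (0 left out).

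Lines that list a gene again with the same values, 287 each in the 7-tissue table and the BAT table, were used once. Within each adipose table, log2(FPKM + 1) was compared with limma 3.58.1 (eBayes, trend) under R 4.3.3 for genes averaging 1 FPKM or more across 6 libraries, with Benjamini-Hochberg adjustment over all of them. A pseudocount of 1 understates changes of low genes. All 9 enzymes passed this filter in both tables. Ratios were tested with exact two-sided permutation tests in Python 3.11.15 with scipy 1.17.1 (figures: matplotlib 3.10.9). The fit was tested on simulated data with independent normal noise. At an adjusted p under 0.05 it recovered 96 (iWAT) and 98 (BAT) of 100 log2 changes of 2. For log2 changes of 1 it recovered 79 and 80 of 100. Of the genes called, 3.85% in iWAT and 6.81% in BAT were false calls, the share in BAT lying above the threshold of 0.05. Smaller changes, such as those of the enzymes, were not simulated. Within iWAT and within BAT, no pair of libraries shared an identical FPKM above 0 in any gene tested.

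The 9 enzymes, the gene lists and the cutoffs of the study were chosen with earlier results of these data known. The text names the 9 enzymes, 8 further cycle subunits, every gene of the lists of cycle, pyruvate, cytosolic and anaplerotic genes past the cutoff, the 5 genes most like the enzymes over the tissues, defining markers and *Ostn*. Of the cycle subunits listed, 1 is not reported here. Pc, on the list of anaplerosis and exits, did not match a symbol in the tables.

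Alternatives were another pseudocount (0.1, 0.01), no filter or a mean FPKM of 5, rescaling to the same sum (TPM), median-ratio and quantile scaling, eBayes without a trend or robust, the replicate number as a block, centring on adipocyte markers, the log2 cutoff of the other tissue, leaving out each library and, chosen after seeing the data, FPKM rescaled to the sum over nuclear-encoded genes.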

Additional observations from a re-analysis of the deposited data

Results flagged for a closer look

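*Pck2*, the mitochondrial phosphoenolpyruvate carboxykinase that withdraws oxaloacetate from the cycle, moved in opposite directions in the 2 adipose tissues: all MCK-Musclin libraries lay above the WT range in iWAT (log2 fold change 0.71) and below it in BAT (log2 fold change -0.56). The difference between these log2 fold changes was 1.27. The difference was not tested, as the tables were scaled and fitted separately, and the levels in BAT were low, between 1.09 and 3.16 FPKM. None of the 9 enzymes showed such a pattern.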

How the results depend on the processing

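All 9 log2 fold changes stayed below 0 in iWAT under every alternative run. The number of iWAT enzymes lower at the cutoff was 2, and it was 4 with a log2 cutoff of 0.3, 0 when centred on the adipocyte markers and 0 to 4 when each library was left out in turn, where fewer libraries enter the fit. *Sucla2* passed the cutoff with TPM, median-ratio or quantile scaling, which made the number 3. In BAT the number was 0 under every alternative (limma). The median log2 fold change of the 9 enzymes in BAT (-0.05) was 0.0883 when centred on the adipocyte markers, with *Fh1* at 0.0433, *Mdh2* at 0.0175 and *Suclg2* at 0.0883, and from -0.0762 to -0.00685 when each library was left out. *Cs* and *Ogdh* in BAT also changed sign without 1 library, with ranges of -0.0132 to 0.0657 and of -0.00685 to 0.0705. The cause of these sign changes was not tested, and all are within the 95% intervals.

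The labels give both genotypes the replicate numbers 1 to 3, but nothing else in the labels pairs the libraries. Same-numbered libraries deviated together with correlations of 0.235, 0.0615 and 0.107 in iWAT and of -0.0951, -0.00463 and 0.00937 in BAT. Differently numbered libraries ran from -0.18 to 0.0702 in iWAT and from -0.0842 to 0.0795 in BAT. In iWAT, WT library 1 and MCK-Musclin library 1 were the most alike pair (Pearson correlation 0.9829 of log2(FPKM + 1)). They also had the lowest fast skeletal muscle sums, 16.0 and 17.5 FPKM. Why these libraries were alike was not tested. With the replicate number as a block, 2 enzymes in iWAT and 0 in BAT passed the cutoff. Median-ratio scaling of the 7 tissues exchanged liver (-0.30) and white adipose tissue (-0.86) in the order, TPM exchanged tibialis anterior muscle (0.09) and small intestine (0.20), and brown adipose tissue stayed first and brain last under the 4 alternatives. Unknown depth in iWAT, 3 libraries per group and 1 library per tissue limit what these values can show.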

Other observations

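The FPKM of *Mdh2* divided by that of *Cs*, a ratio chosen after its values were seen, was 1.74, 1.68 and 1.80 in the WT group of BAT and 1.53, 1.53 and 1.65 in the MCK-Musclin group, without overlap. In iWAT it was 1.98, 2.20 and 1.86 in the WT group and 2.04, 2.33 and 2.34 in the MCK-Musclin group, where the groups overlapped. Over the 7 tissues it ran from 1.28 in brown adipose tissue to 6.42 in liver. No test was run on this ratio.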
